A study of Mus musculus with 3 samples.

Results

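Plasma cells of the mouse duodenum were examined in droplet single-cell RNA sequencing data from mice given alpha-synuclein preformed fibrils (PFF) or saline. They were chosen by their own counts of unique molecular identifiers (UMIs, each standing for 1 captured RNA molecule). A plasma cell barcode held 500 or more UMIs from 200 or more genes, with no more than 15% of them mitochondrial. It also needed at least 20 UMIs of Jchain, at least 5 UMIs of Sdc1, Tnfrsf17, Mzb1 and Derl3 together, and no UMI of Cd3e, a T cell receptor component, or of Ms4a1, the B cell antigen CD20. Of 40606 barcodes counted once, 33284 passed the quality limits and 61 of these were plasma cells, which is 0.183% (exact 95% interval 0.140 to 0.235).

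The tested library, PFF 1, came from C57B6/J mice, male per the series title, 30 days after mouse recombinant alpha-synuclein fibrils were injected into the wall of the duodenum. The controls, saline 1 and saline 2, came from mice of the same strain and day that received saline. Cells were freed with Accumax, part was sorted for CD45, a second part was taken with CD11b beads, and the parts were combined. PFF 1 and saline 1 belong to batch 1 and saline 2 to batch 2, and the number of mice per library is not given in the sources used here. The 2 saline files hold 3 wells in common with identical barcodes and counts (13889 barcodes). These wells were counted once, as a further library called shared saline, whose batch the labels therefore do not fix. Each saline file has 1 well of its own, and PFF 1 is 1 well. No plasma cell barcode was found in another well.

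Plasma cells are terminally differentiated B cells that secrete antibody. Those of the gut wall mostly make IgA as dimers joined by the J chain, which the epithelium carries into the lumen. To secrete at this rate they expand the endoplasmic reticulum (ER), its protein-folding enzymes and the XBP1 branch of the unfolded protein response, and they shut down most of the B cell programme.

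The genes of the rule mark different sides of this cell type. Jchain (GRCm38 chromosome 5, 88519809 to 88527891, minus strand) encodes the J chain and took a median of 5.15% of all UMIs of a plasma cell (range 1.62 to 8.07). Mzb1 encodes an ER chaperone of antibody assembly, Derl3 a component of ER-associated degradation, Sdc1 the surface proteoglycan CD138, and Tnfrsf17 the survival receptor BCMA. Of the 61 cells, 61 held Mzb1, 57 Sdc1, 54 Tnfrsf17 and 52 Derl3. These values chose the cells and are given as a description. The lowest Jchain count inside the rule was 35 UMIs and the next was 146, while the highest Jchain count among the 58 barcodes that met every other condition was 2. The lowest summed count of the other rule genes was 5, and the 6 barcodes that failed only on it had 2 to 4 UMIs and a median of 113.5 Jchain UMIs.

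The conditions on Cd3e and Ms4a1 removed more barcodes than they left. Of 168 barcodes positive for Jchain and the summed rule genes, 60 held Cd3e and 66 held Ms4a1, with 20 barcodes in both counts, and 1 failed the quality limits. The 40 barcodes excluded for Cd3e alone held a median of 2 Cd3e UMIs, 1351 Jchain UMIs and 45.5% immunoglobulin UMIs. In 39 of them Igha was the leading heavy chain gene. The 46 excluded for Ms4a1 alone differed from the plasma cells in their medians, with 20.5 Ms4a1 UMIs, 33.5 Jchain UMIs and 0.753% immunoglobulin UMIs. In 8 of them immunoglobulin UMIs were over 15%, up to 65.6%.

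Plasma cells were scarce in every well and unevenly spread among the saline wells. PFF 1 held 10 among 12263 cells kept (0.0815%, exact 95% interval 0.0391 to 0.150). Saline 1 held 3 among 5459 (0.0550%, 0.0113 to 0.161) and saline 2 held 6 among 4332 (0.139%, 0.0508 to 0.301). The PFF 1 share therefore lay between those of saline 1 and saline 2, inside the interval of each. The shared saline wells 1, 2 and 3 held 6 of 993 (0.604%), 4 of 1734 (0.231%) and 32 of 8503 (0.376%). Joined, shared saline held 42 of 11230 (0.374%, 0.270 to 0.505), and its interval lies above the interval of PFF 1. No test of the share was made. An exact permutation of 1 PFF library against 3 saline libraries cannot reach a p under 0.05, and the intervals cover counting error only. The shares also follow the mix of sorted and bead-enriched cells in each well, which the labels do not give. Set against B cells of the same library (at least 2 UMIs each of Ms4a1 and Cd79a, no Cd3e), there were 2.10 plasma cells per 100 B cells in PFF 1, against 10.7 in saline 1, 8.33 in saline 2 and 14.7 in shared saline. PFF 1 was the lowest of the 4 by this ratio, with 476 B cells against 28, 72 and 285. Without the condition on Cd3e, PFF 1 held 0.122%, against 0.128% in saline 1, 0.139% in saline 2 and 0.650% in shared saline, so that PFF 1 came below saline 1. That setting was chosen after the excluded barcodes had been seen. Without the conditions on both Cd3e and Ms4a1, a planned setting, PFF 1 held 0.367%, against 0.147% in saline 1, 0.231% in saline 2 and 0.926% in shared saline. PFF 1 then came above saline 1 and saline 2.

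**Figure D1:**
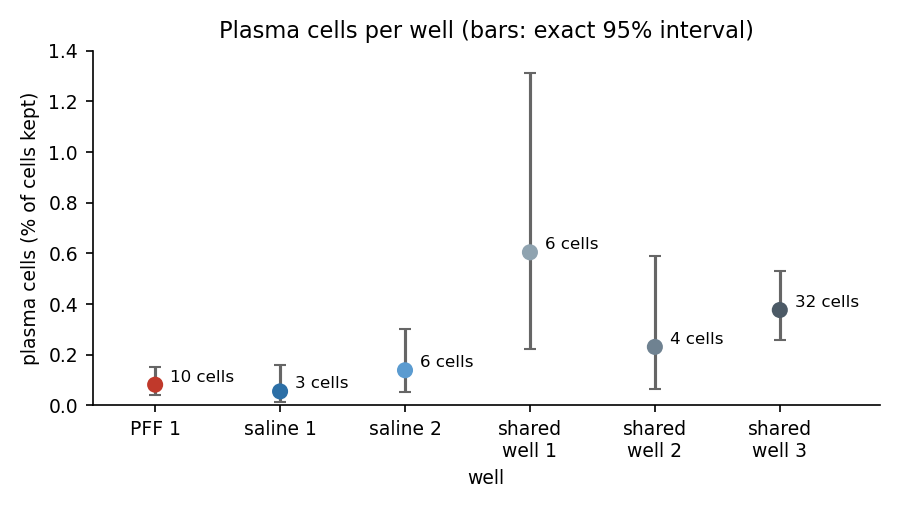
Plasma cells as a percentage of the cells kept in each well (vertical axis, from 0), with the number of plasma cells beside each point and bars for the exact 95% binomial interval. PFF 1, at 0.0815%, lies between saline 1 and saline 2 and below the shared saline wells.

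Antibody RNA made up about as much of a plasma cell's RNA as all other genes together. Immunoglobulin genes took 52.5% of the summed plasma cell UMIs in PFF 1, against 50.5% in saline 1, 53.2% in saline 2 and 51.3% in shared saline. Single cells ranged from 16.3% to 74.5% with a median of 51.7%, and the highest B cell lay at 3.08%. This gap follows in part from the limits, since B cells were taken with under 20 Jchain UMIs. The 46 barcodes excluded for Ms4a1 alone, which are in neither set, ran from 0.305% to 65.6%. The 10 PFF cells ran from 21.8% to 74.5%, overlapping the saline cells of every library. The cells were also large in captured RNA, with medians of 29595 UMIs in PFF 1, 10533 in saline 1, 39610 in saline 2 and 18619 in shared saline. Jchain medians were close, at 5.82% of all UMIs in PFF 1, 5.40% in saline 1, 6.17% in saline 2 and 4.95% in shared saline. Light chain constant UMIs exceeded heavy chain constant UMIs in all 61 cells, by 1.21 to 7.20 times. The median ratio was 3.30 in PFF 1, 2.18 in saline 1, 3.64 in saline 2 and 2.30 in shared saline, with PFF 1 inside the saline range.

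**Figure D2:**
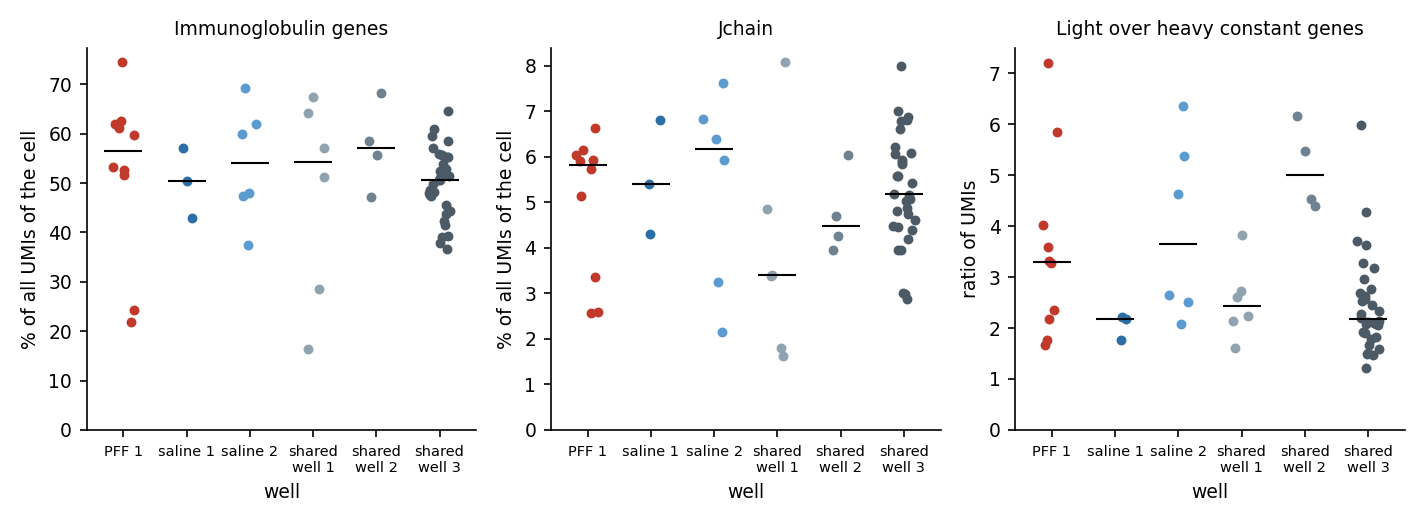
Immunoglobulin genes and Jchain as a percentage of all UMIs of a cell, and the ratio of light to heavy chain constant UMIs, by well. Each point is 1 plasma cell and each line the median of a well. The PFF 1 cells overlap the saline cells in all 3 measures.

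Nearly all plasma cells were of the IgA class. Igha (chromosome 12, 113254830 to 113260236, minus strand), the constant gene of IgA, was the leading heavy chain gene in 59 of 61 cells, 96.7% (exact 95% interval 88.7 to 99.6). In PFF 1 this held for 9 of 10 cells (exact 95% interval 55.5% to 99.7%), against 50 of 51 saline cells (89.6% to 99.95%). Each group held 1 cell of another class, and the intervals overlap. The class was clear in each cell, since the leading gene held at least 95.8% of the heavy chain constant UMIs, with a median of 100%. The summed plasma cells held 103859 Igha UMIs per 1000000 UMIs of PFF 1, against 159542 for saline 1 and 107672 for saline 2. T cells of the same wells, which should lack the gene, held 38.1 for PFF 1, against 45.8 for saline 1 and 37.9 for saline 2. In the shared wells 1, 2 and 3 they held 60.0, 38.7 and 239.6. An Igha UMI was found in 27.3% of T cells of PFF 1, against 75.2% in shared well 3, at median depths of 9465 and 6266 UMIs per T cell, and in all plasma cells.

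The exceptions were 1 IgG2b cell and 1 IgM cell. The IgG2b cell, in PFF 1, held 3249 Ighg2b UMIs and 2 Igha UMIs, used Ighv7-3 with Igkv1-110, and had the highest mitochondrial share of all plasma cells, 12.9%. It also held 93 UMIs of Cd79a, a B cell receptor subunit, against a highest count of 39 in the other PFF cells. The IgM cell, in shared well 3, held 3274 Ighm UMIs and 28 Igha UMIs. Kappa light chains led in 60 of 61 cells (98.4%, 91.2 to 99.96). The lambda cell, in shared well 3, held 12668 UMIs of Iglc1, the constant gene of lambda 1, and 4 of Igkc. With 1 IgM cell, IgA and IgM cells were not compared by a test.

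**Figure D3:**
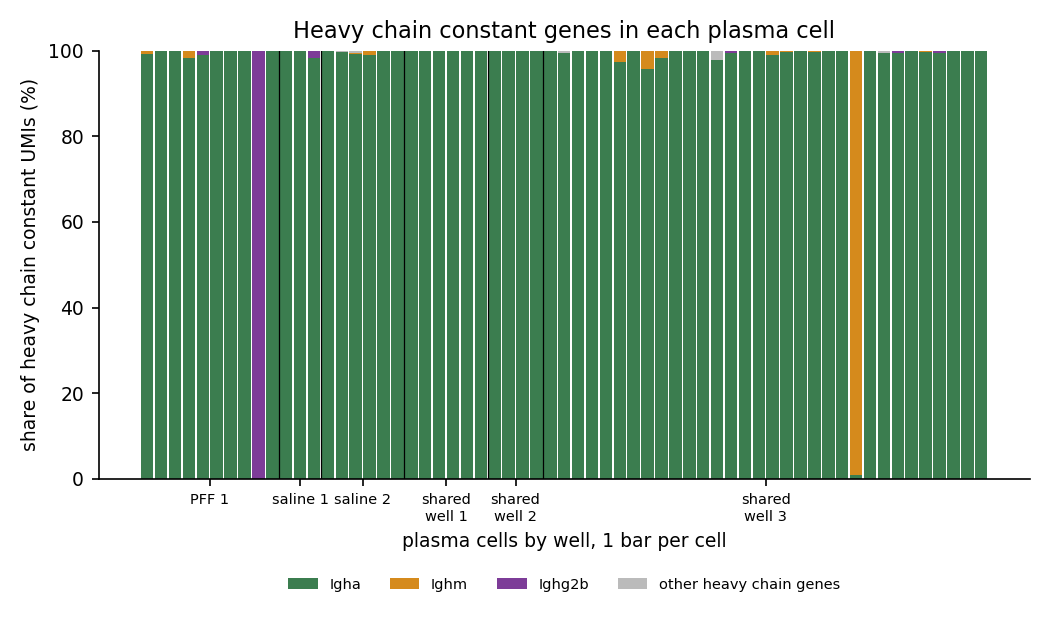
Share of heavy chain constant UMIs taken by Igha, Ighm, Ighg2b and all other heavy chain genes (vertical axis, percent) in each of the 61 plasma cells, 1 bar per cell, grouped by well. Igha fills nearly every bar; the exceptions are 1 Ighg2b cell in PFF 1 and 1 Ighm cell in shared well 3.

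Nearly every plasma cell carried a pair of variable genes found in no other plasma cell. A heavy chain variable (V) gene was detected in 60 cells, and the leading one took a median of 100% of the heavy V UMIs of the cell. The cells used 39 different heavy V genes and 34 different light V genes, in 57 different pairs. The one pair found in more than 1 cell was Ighv1-26 (chromosome 12, 114788372 to 114788805) with Igkv5-48 (chromosome 6, 69726573 to 69727138), in 4 cells of the shared saline wells, 1 in well 1, 2 in well 2 and 1 in well 3. Ighv1-26 led in 7 cells in all and Igkv1-110 in 7. No pair of V genes recurred among the 10 PFF cells. Reads of near-identical V genes can be split in counting, and a shared pair of V genes does not show a shared clone, because the joined sequence was not read here.

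The secretory machinery stood far above its level in B cells in every library. Levels are given as CPM, here UMIs per 1000000 UMIs other than immunoglobulin UMIs, and the 3' UMIs count molecules without an effect of gene length. Comparison with B cells uses the contrast that chose the cells and is given with no test. Across all 11046 genes other than immunoglobulin genes with at least 20 UMIs, 8.3% lay above B cells in each of the 4 libraries and 29.6% lay below. Of 25 genes of ER chaperones and folding, 23 lay above B cells in each library, and their summed level was 7.61 times that of B cells in PFF 1, 9.18 times in saline 1, 7.09 times in saline 2 and 8.45 times in shared saline. Hsp90b1, the ER member of the HSP90 chaperones, stood at 5540 CPM in PFF 1, against 3301 in saline 1, 4775 in saline 2 and 4111 in shared saline, and at 156 to 357 in B cells. Txndc5, a disulfide isomerase, stood at 2740, against 3366, 3508 and 2864 in the same order. Hspa5, the main ER chaperone BiP, had 1608, against 1295, 882 and 1167, so that PFF 1 lay above the saline libraries for Hsp90b1 and Hspa5 and below them for Txndc5.

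Signal peptide and translocon genes, which bring new chains into the ER, followed the same pattern. Of 25, 23 lay above B cells in each library, at a summed level 6.10 to 6.55 times that of B cells. The 3 most abundant were Ssr4, a translocon-associated subunit, at 2502 in PFF 1, Sec11c, the catalytic subunit of signal peptidase, at 2696, and Sec61b, of the translocation channel, at 1556. Their saline levels were 2330, 2969 and 2707 for Ssr4, 2071, 2159 and 2372 for Sec11c, and 1683, 1505 and 1691 for Sec61b, in saline 1, saline 2 and shared saline. Of 19 genes of the unfolded protein response and ER-associated degradation, 15 lay above B cells in each library, 8.80 to 11.6 times in sum. Edem1 and Edem2, which direct misfolded glycoproteins to degradation, were detected in 61 of 61 cells each. Of the branch that ends in cell death, Trib3 had no UMI and Ddit3, which encodes CHOP, was found in 8 cells. Of 18 ER to Golgi transport genes, 12 lay above B cells in each library, led by the cargo receptor Lman1 at 879 in PFF 1, against 842, 592 and 705 in saline 1, saline 2 and shared saline.

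Promoters of some of these genes carry the ER stress response element (ERSE), to which ATF6 and XBP1 are known to bind, and 4 of them are shown because their genes are among the folding and degradation genes described here. RefSeq promoters of GRCm38.p6, from 250 bases before to 50 after each start, were searched on both strands for CCAAT and CCACG with any 9 bases between them. The motif was found in 0.119% of 32851 promoters and, counted per gene as in the lists below, in 37 of 27025 genes (0.137%). It was found in 7 of the 21 chaperone and folding genes with a promoter in the table (Hspa5, Hsp90b1, Calr, Canx, Pdia6, Dnajc3 and Creld2), in 1 of 17 unfolded protein response and degradation genes (Syvn1), in none of 19 translocon and none of 15 transport genes, and in 1 of 4 rule genes (Derl3). The shorter ERSE-II, ATTGG and CCACG with any 1 base between them, in 0.0365% of promoters and 0.0444% of genes, was found in the promoters of Dnajb11, Herpud1 and Krtcap2. A match describes letters in the window, not a bound site. The promoters below run 5′ to 3′ on the strand of the gene, with the ERSE in capitals: Derl3 (chr10:75893148-75893447, plus strand), Hspa5 (chr2:34771840-34772139, plus), Hsp90b1 (chr10:86705395-86705694, minus) and Creld2, an ER disulfide isomerase (chr15:88819396-88819695, plus).
Derl3: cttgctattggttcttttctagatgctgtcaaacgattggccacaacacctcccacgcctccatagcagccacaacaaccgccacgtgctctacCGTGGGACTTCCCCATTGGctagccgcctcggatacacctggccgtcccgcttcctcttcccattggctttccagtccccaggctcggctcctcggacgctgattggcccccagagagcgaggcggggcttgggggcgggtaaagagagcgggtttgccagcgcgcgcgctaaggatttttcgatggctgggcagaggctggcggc
Hspa5: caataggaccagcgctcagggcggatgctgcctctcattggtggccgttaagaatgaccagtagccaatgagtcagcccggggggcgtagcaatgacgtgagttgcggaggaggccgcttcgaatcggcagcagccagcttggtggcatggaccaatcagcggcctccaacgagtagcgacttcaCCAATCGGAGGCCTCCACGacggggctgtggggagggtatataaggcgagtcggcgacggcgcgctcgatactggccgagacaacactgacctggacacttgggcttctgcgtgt
Hsp90b1: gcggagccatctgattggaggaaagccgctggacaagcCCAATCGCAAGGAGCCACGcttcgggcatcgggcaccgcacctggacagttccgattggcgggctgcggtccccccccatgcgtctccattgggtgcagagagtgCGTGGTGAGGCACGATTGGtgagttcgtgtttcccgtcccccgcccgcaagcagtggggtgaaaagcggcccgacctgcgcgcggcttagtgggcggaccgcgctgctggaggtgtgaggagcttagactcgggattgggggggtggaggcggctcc
Creld2: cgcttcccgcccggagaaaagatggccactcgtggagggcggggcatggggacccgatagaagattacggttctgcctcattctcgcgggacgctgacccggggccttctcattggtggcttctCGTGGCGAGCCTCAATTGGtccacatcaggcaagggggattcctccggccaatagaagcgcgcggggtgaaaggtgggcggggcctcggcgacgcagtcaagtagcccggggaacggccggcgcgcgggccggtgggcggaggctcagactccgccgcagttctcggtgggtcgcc
The Hspa5 motif lies on the strand of the gene, 65 to 47 bases before its start, those of Derl3 and Creld2 lie on the other strand, and Hsp90b1 carries 2, 1 on each strand.

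**Figure D4:**
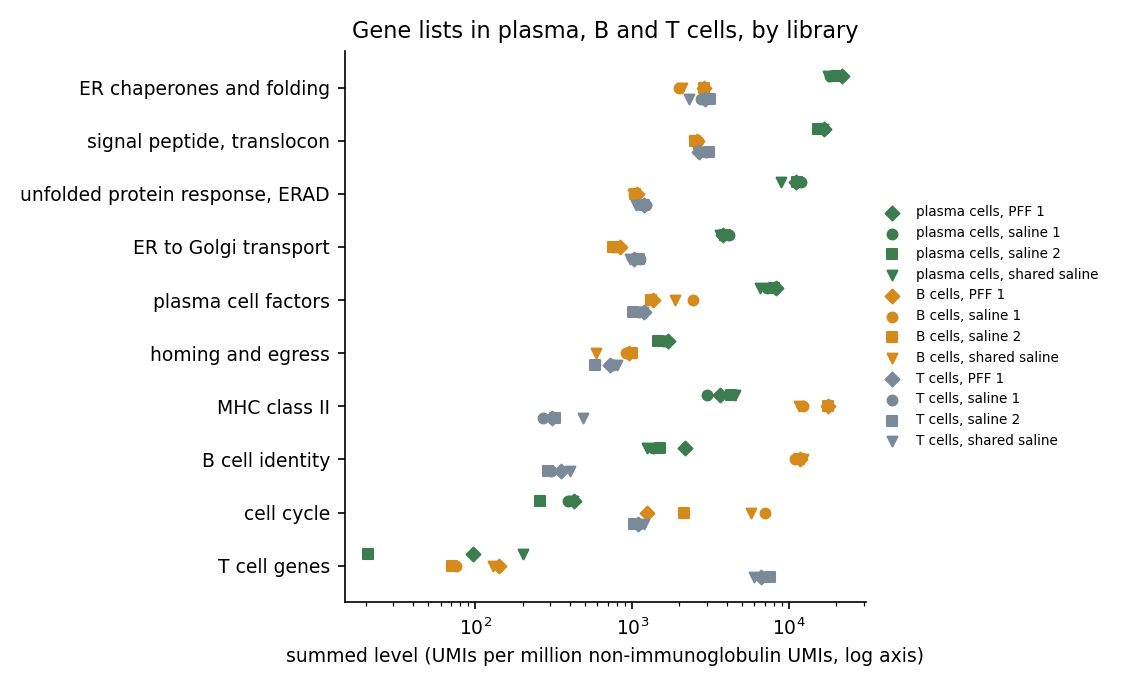
Summed level of 10 gene lists (log axis, CPM) in plasma cells, B cells and T cells, with 1 symbol per library; plasma cells of saline 1 are at 0 for T cell genes and are not drawn there. ER and secretion lists lie above B and T cells in all 4 libraries, and B cell identity genes and MHC class II lie below B cells.

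The regulators of the plasma cell state were detected in most cells. Xbp1, the transcription factor of the unfolded protein response and of secretion, was found in 61 of 61 cells. Its level was 4044 in PFF 1, against 3819 in saline 1, 4494 in saline 2 and 2803 in shared saline, and 45.4 to 91.2 in B cells. Prdm1, which encodes Blimp-1, the repressor of the B cell programme, was found in 49 cells and stood at 566 in PFF 1, against 259, 633 and 239. Irf4, needed for plasma cell formation, was found in 48 cells, at 372 in PFF 1, against 0, 332 and 484. Ell2, an elongation factor that favours secreted antibody RNA, stood at 700 in PFF 1, against 712, 581 and 769. Creb3l2 (56 cells) and Bhlha15, which encodes Mist1 (27 cells), were nearly absent from B cells, at 0 to 6.52 and 0 to 0.483. Zbtb20, a zinc finger factor of long-lived plasma cells, stood at 953 in PFF 1 plasma cells, against 813 in PFF 1 B cells. In the 3 saline libraries it lay below B cells, as at 824 in shared saline plasma cells, against 1118 in shared saline B cells.

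The B cell programme was low or absent. Pax5, its main transcription factor, had no UMI in the 61 cells, against 817 to 1021 CPM in B cells. Cd22, Cr2, Spib and Bcl6 were each found in 1 cell and Ciita in 2. Of the 14 B cell identity genes, 13 lay below B cells in each library, which includes the effect of the Ms4a1 condition on which cells were taken. Receptor subunits were kept, with Cd79a in 56 cells and Cd79b in 51. Cd79a stood at 1653 in PFF 1, against 583 in saline 1, 996 in saline 2 and 769 in shared saline, above all saline libraries, with 93 of the 222 PFF UMIs in the IgG2b cell. Cd74, the MHC class II invariant chain, was found in 61 cells at 2784 to 3986, against 5860 to 9087 in B cells, whereas H2-Aa was at 20.8 to 74.5, against 1873 to 2911 in B cells.

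Some receptors for gut homing and survival were present. Of 11 homing and egress genes, 4 lay above B cells in each library and 4 lay below, and 2 of the 11 had no UMI in plasma cells. Of 14 survival genes, 7 lay above and 2 below. Ccr10, the receptor of mucosal chemokines CCL27 and CCL28, was found in 54 cells, at 558 in PFF 1, against 194, 561 and 487, and had no UMI in B cells of any library. Ccr9, the receptor for the small intestinal chemokine CCL25, was found in 33 cells, at 141 in PFF 1, against 64.7, 208 and 226. Ccr7, which directs cells into lymph nodes, had no UMI. Among survival genes, Tnfrsf13b, which encodes TACI, stood at 506 in PFF 1, against 906, 467 and 476, and Cd28 was found in 51 cells. Ly6c2 was spread unevenly, at 968 in PFF 1, against 2784, 685 and 1505. Ctla4, an inhibitory receptor better known from T cells, was found in 35 cells, while the cytokine Il10 was found in 1 and Tnf, Csf2 and Nos2 in none.

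Cell cycle genes stood below their level in B cells in sum. Of the 61 plasma cells, 54 held a UMI of at least 1 of the 12 cell cycle genes, and Mki67, a marker of cycling cells, was found in 17. The summed CPM of the 12 genes was 424 in PFF 1, against 388, 259 and 420 in saline 1, saline 2 and shared saline. B cells of the same libraries had 1234, 7043, 2125 and 5708 in that order. The highest summed counts were 21 UMIs in 1 PFF cell and 20 UMIs in 1 cell of shared well 1, which also had the lowest immunoglobulin share, 16.3%. Across the 61 cells, which share libraries and depth, the immunoglobulin percentage had a Spearman correlation of 0.67 with the Jchain level, 0.45 with MHC class II and -0.17 to 0.11 with the 4 secretory lists. Within the 32 cells of shared well 3 the values were 0.53, 0.27 and -0.20 to -0.10. The levels are divided by the cell's UMIs other than immunoglobulin UMIs, and the percentage falls as these rise. The compared measures are therefore not independent, and Jchain also chose the cells.

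Genes of other cell types were checked in the same cells. The 8 T cell genes other than Cd3e summed to 96.8 CPM in PFF 1, 0 in saline 1, 20.8 in saline 2 and 202 in shared saline, against 5981 to 7534 in T cells, and 40 of the 61 plasma cells held a UMI of at least 1 of them, with Cd8a in 14 and Cd3g and Trbc2 in 12 each. The 12 epithelial genes had a UMI in 41 cells, with Apoa1 in 8, Apoa4 and Fabp2 in 7 each, Krt18 in 3, Krt8 in 2, and Krt19 and Krt20 in none. Of the 8 myeloid genes, Lyz2, C1qa, C1qb and Csf1r had no UMI, Cd68 was found in 2 cells and Itgax in 1. Of the 6 stromal and endothelial genes, Pecam1, which B cells also held, was found in 18 cells and the other 5 in none. The 5 mast cell genes had a UMI in 4 cells, with 30 UMIs in 1 cell of shared well 3 and 1 UMI in each of the other 3. Of the 4 haemoglobin genes, Hbb-bs was found in 1 cell. Cst3 was found in 58 cells, Epcam in 36 and Fcer1g in 32, and each stood above B cells in every library.

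PFF and saline plasma cells were compared across all genes on UMIs summed per library. The planned test needed 10 plasma cells in at least 2 saline libraries, and only shared saline had them, so the test below, without that minimum, was chosen after the cell numbers were known. It sets 10 cells of PFF 1 against 3, 6 and 42 cells of the saline libraries, takes its spread from the saline libraries alone, and assumes that PFF 1 varies like them. These 3 saline libraries are parts of only 2 saline files, and shared saline is not known to be an independent replicate. Fewer cells of a kind and less RNA per cell cannot be told apart in such sums. The low-count filter kept any gene that passed it in 1 library, which could be PFF 1 alone. Genes without a saline UMI, such as Igkv12-44 and Olfr889, entered the test only because they were high in PFF 1. By edgeR's quasi-likelihood test with Benjamini-Hochberg adjustment, 19 of 2977 genes were higher in PFF 1 and 10 were lower, 0.638% and 0.336% of the genes tested (0.974% in all). At an unadjusted p under 0.05 there were 130. DESeq2 called 8 higher and 0 lower. Without saline 1 there were 10 higher and 3 lower, and without saline 2 there were 15 higher and 36 lower.

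Immunoglobulin genes made up 20 of the 29 calls, and the higher ones rested on single cells. Each of the 11 higher ones had more than 90% of its PFF UMIs in 1 cell, such as Igkv12-44 (437 UMIs), Ighv1-19 (382) and Ighg2b (3285, with 98.9% in the IgG2b cell), against 0, 0 and 96 UMIs in all saline plasma cells. The 9 lower ones were V genes, and 5 of them had over 50% of their UMIs in 1 cell. Igkv5-48 had 0 UMIs in PFF 1, against 352 in 8 saline cells. For 8 of the 9 lower genes a saline library was at 0 too, so PFF 1 was not below every saline library; the exception was Igkv16-104, with 0 UMIs in PFF 1, against 2, 33 and 193 in saline 1, saline 2 and shared saline.

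Among the other genes, Btg2 was the called gene found in most PFF cells. Btg2 (chromosome 1, 134075170 to 134079120, minus strand) encodes an antiproliferative protein induced early after stimulation. The 10 PFF cells held 0 to 48 Btg2 UMIs, with 8 cells above 0. Detection was as wide in saline, in 2 of 3 saline 1 cells, 4 of 6 saline 2 cells and 35 of 42 shared saline cells. The level was 1005 in PFF 1, against 129 in saline 1, 249 in saline 2 and 261 in shared saline. PFF 1 lay above each saline library, at a log2 fold change of 2.20 ± 0.58 (SE, 4 libraries, edgeR adjusted p = 0.0458). PFF 1 and saline 1, of the same batch, differed in the same direction. The saline 1 level rested on only 2 UMIs in 2 cells, so this same-batch comparison says little. The adjusted p was 0.0232 without saline 1, 0.286 without saline 2, 0.365 without shared saline and 0.148 without the IgG2b cell.

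Sesn1, a stress-inducible regulator of growth signalling, was found in 6 of 10 PFF cells, at a level of 343 in PFF 1, against 0, 41.5 and 93.1 in saline 1, saline 2 and shared saline (log2 2.37 ± 0.61, edgeR adjusted p = 0.0444). In 1 cell lay 27 of its 46 PFF UMIs. Of the saline cells, 0 of 3 in saline 1, 2 of 6 in saline 2 and 16 of 42 in shared saline held Sesn1. Gem, a small GTPase, had 33 UMIs in 4 PFF cells, against 0, 2 and 21 in the saline libraries (log2 2.57 ± 0.66, edgeR adjusted p = 0.0392). Hsph1, a cytosolic chaperone, had 27 UMIs in 2 PFF cells, against 1, 1 and 10, and Kctd12, a GABA-B receptor subunit, had 28 UMIs in 3 PFF cells, against 0, 5 and 7. Without saline 1 the edgeR adjusted p was 0.179 for Sesn1, 0.191 for Gem, 0.228 for Hsph1 and 0.235 for Kctd12, and without saline 2 it was 0.219, 0.128, 0.0665 and 0.00655. The remaining 3 higher calls rested on single cells, and without saline 1 their edgeR adjusted p was 0.0587 for Apoe, 0.147 for Gm13822 and 0.0568 for Olfr889. Apoe, a lipid carrier, had 32 PFF UMIs, 30 of them in the IgG2b cell, against 0, 0 and 5. Gm13822, which has no role assigned here, had 72 in 1 cell, against 0, 0 and 28. Olfr889, named as an odorant receptor, had 29 in 1 cell and none in saline, at least 34.5-fold higher as a share of all UMIs, with 3 counts over all saline plasma cells taken as the floor.

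Immediate-early genes were examined beside these calls. The 10 genes of the dissociation list, which respond to tissue digestion, summed to 3031 CPM in PFF 1, against 194 in saline 1, 2356 in saline 2 and 1888 in shared saline. PFF 1 was highest, and 3 of its cells held 173, 99 and 87 of these UMIs, against 0 to 23 in the other 7. These are raw counts, and the cell with 173 held 60662 UMIs in all, against a median of 29595 in PFF 1. In CPM of the cell, the list ran from 0 to 8865 over the 61 plasma cells, with a median of 876. The cell with 173 also held the most UMIs of Btg2, Gm13822, Hsph1 and Kctd12, the cell with 99, which is the IgG2b cell, the most of Apoe and Gem, and the cell with 87 the most of Sesn1. Olfr889 lay in another cell. Fos stood at 1258 in PFF 1, against 0, 727 and 633, and Jun at 864, against 0, 654 and 319 in saline 1, saline 2 and shared saline. Of 6 dissociation genes tested, none was called, which says little where 0.974% of all genes tested were called. Fitted values were above 0 for 5 of the 6, with a median log2 value of 0.92, which was 1.42 without saline 2 and 0.53 without the IgG2b cell. The part of this list in the calls was not tested.

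The one lower call outside the immunoglobulin genes was Ly6k, which encodes a GPI-anchored protein of the Ly6 family. Ly6k (chromosome 15, 74796874 to 74799986, minus strand) had 2 UMIs in 1 of 10 PFF cells, against 16 in 1 of 3 saline 1 cells, 46 in 2 of 6 saline 2 cells and 48 in 6 of 42 shared saline cells. The log2 fold change was -4.63 ± 1.04 (SE, edgeR adjusted p = 0.0101), and without saline 1 the adjusted p was 0.228. Genes with no PFF UMI and no call included Dnpep, an aspartyl aminopeptidase, with 38 saline UMIs, and Ranbp10, Rest and Adrm1 with 25, 20 and 19. E430024P14Rik and Thbd, the thrombomodulin gene, were high without passing, with 16 and 15 PFF UMIs, against 3 and 4 in saline.

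**Figure D5:**
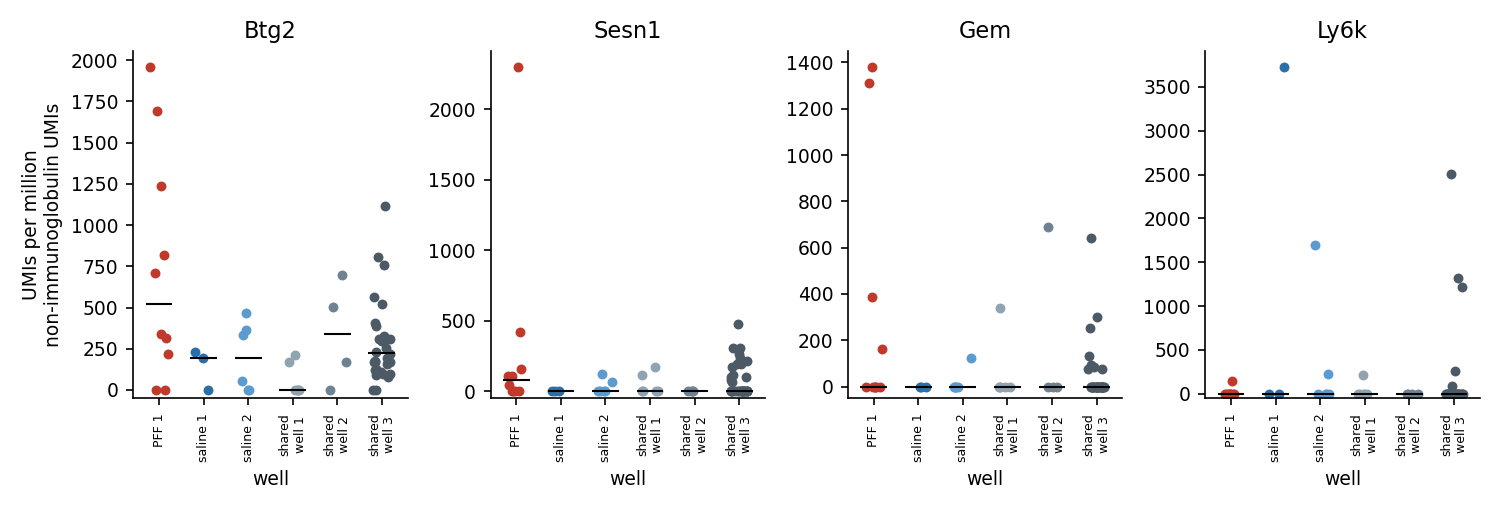
Level of Btg2, Sesn1, Gem and Ly6k (CPM of the cell) in each plasma cell by well, with lines at the medians. High Btg2 values are spread over several PFF 1 cells, whereas Sesn1, Gem and Ly6k rest on few cells.

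The secretory, transcription factor, homing, survival and interferon lists held no call between PFF and saline, against 29 of all 2977 genes tested (0.974%). At that share, lists of 5 to 25 tested genes could well hold none, so the lack of a call says little about them. Over all 2977 genes tested, 1470 had a fitted value above 0 and the median log2 value was -0.01. PFF 1 lay above every saline library in 19.2% of the genes and below every one in 24.3%. Of 24 chaperone and folding genes tested, 18 were above 0, with a median of 0.35, and PFF 1 lay above every saline library for 10 and below for 4. Manf, an ER-resident stress factor, stood at 1311 in PFF 1, against 647, 561 and 899 in saline 1, saline 2 and shared saline, and did not pass (log2 1.02 ± 0.58, edgeR adjusted p = 0.999). Without the IgG2b cell 15 of the 24 were above 0, with a median of 0.10. Translocon genes had 18 of 25 above 0 (median 0.20), unfolded protein response and degradation genes 12 of 16 (0.20), transport genes 8 of 15 (0.09) and plasma cell factors 7 of 7 (0.31). Without saline 1 the median was 0.23 for chaperones, 0.07 for translocon genes, with 14 of 25 above 0, and 0.14 for plasma cell factors, and 7 of 14 transport genes were above 0. Without saline 2 it was 0.43 for the unfolded protein response list and 0.15 for transport genes. The median over all genes tested was -0.07 without saline 1 and 0.03 without saline 2. Homing genes had 2 of 5 above 0 (-0.30), survival genes 5 of 9 (0.00) and interferon response genes 2 of 5 (-0.01). The interferon median was -0.13 without saline 1, -0.06 without saline 2 and 0.10 without the IgG2b cell, and the survival median was 0.08, -0.05 and 0.09. Ifi27l2a, of the interferon list, showed how far the saline libraries themselves differed, at 998 in PFF 1, against 2460 in saline 1, 93.4 in saline 2 and 471 in shared saline. A p above the threshold in a comparison of this size does not show that the groups were alike.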

How the data were processed

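Files of raw UMI counts per gene and barcode were deposited as whole numbers over 32285 genes. Cell Ranger 7.0.0 made them, per the file headers, on mm10, per the submitters' processing notes. The members and gene lists were chosen with earlier results of these data known. No doublet caller was run, and doublets were not removed otherwise. The conditions on Cd3e and Ms4a1 leave out only barcodes with a UMI of these genes. Under 2 UMIs of every listed T cell, epithelial and myeloid gene were held by 1 of 10 PFF cells and 3 of 51 saline cells. Cst3 alone reached 2 UMIs in 55 of the 61 cells. The mast cell, stromal and haemoglobin genes did not enter this limit. T cells for comparison had at least 1 UMI each of Cd3e and Cd3d, and T and B cells under 20 Jchain UMIs.

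The barcodes hold 7553070 to 142955760 UMIs per well, and the summed plasma cells 31183 to 771835 UMIs per library. UMIs of a library's plasma cells were added up for edgeR 4.0.16, run under R 4.3.3 (TMM, filterByExpr, quasi-likelihood F test, 2-sided, called at an adjusted p under 0.05), after checks on simulated data. The simulated counts were drawn per library with a common dispersion, so these checks do not cover calls that rest on single cells. Alternatives were RLE scaling, no low-count filter, DESeq2 1.42.0, immunoglobulin genes left out, other cell limits and libraries left out. The labels do not name the animals behind each library, so p-values measure the spread between libraries, which may be technical. Each SE is the size of the fitted log2 value divided by the square root of its F statistic, and is approximate. Named genes were the called ones, those with the highest and lowest fitted values among genes within the limits below, and abundant members of each list. The limits were a level of 20 or more, PFF 1 outside the saline range, and at least 0.25 of the level in the library's other cells. For these limits alone, levels were UMIs per 1000000 of all UMIs, immunoglobulin UMIs included. Examples within lists were in part chosen after their values were seen. Gene positions are from GENCODE M21 (GRCm38), which holds 32158 of the 32285 gene IDs.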

Additional observations from a re-analysis of the deposited data

How the results depend on the processing

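No paired analysis was possible because PFF and saline share a single replicate number. Without the conditions on Cd3e and Ms4a1, the barcodes taken made up 0.367% of PFF 1, 0.147% of saline 1, 0.231% of saline 2 and 0.926% of shared saline. PFF 1 then lay above saline 1 and saline 2. Barcodes excluded for Ms4a1 alone, which this setting takes in, had a median of 0.753% immunoglobulin UMIs. Without the condition on Cd3e alone, plasma cells made up 0.650% of shared saline. At most 10% mitochondrial UMIs left out the IgG2b cell and gave an IgA share of 100% in PFF 1. Genes higher in PFF 1 numbered 8 by DESeq2, 9 with immunoglobulin genes left out, 12 without the IgG2b cell, and 10 with saline 1 and saline 2 joined as 1 library. Genes lower numbered 0, 1 and 5 by DESeq2, without immunoglobulin genes and with saline joined, and 27 with no filter on low counts. Leaving out saline replicate 1 or 2 gave 10 to 15 higher and 3 to 36 lower. Without its cell, Ighg2b had a log2 value of -0.68. The direction of the 9 other called genes was the same in each alternative that gave a value. Btg2 kept its call in 5 of 10 alternatives (adjusted p 0.00786 to 1.00 by edgeR or DESeq2), and Sesn1 and Gem in 4 of 10. The remaining shares of plasma, IgA and kappa cells stayed within their intervals. RLE scaling, a Jchain limit of 40 and leaving out shared saline kept both counts of calls within 1.5 times. Cells with under 2 UMIs of every listed T cell, epithelial and myeloid gene were 1 in PFF 1 and 0 in saline 1 and saline 2, so that alternative could not be fitted. Depth limits the comparison, since 3 UMIs correspond to 22.3 CPM in PFF 1 and 194 CPM in saline 1. The causes were not tested.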
